A study of Mus musculus with 8 samples.

Results

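Adrenergic and antilipolytic receptor signalling was described through 9 genes of 28295 in the expression table, chosen by name: the receptor genes Adrb1, Adrb3, Adra2a, Hcar1, Hcar2 and Ptger3, the G protein subunit gene Gnai1, and the cAMP-handling genes Pde3b and Prkar2b. Each was present once. The 9 genes were chosen with earlier results of these data known, so counts over them are descriptions. The samples were epididymal white fat from male mice on a Western diet for 8 weeks, taken after a 6 h fast, as 4 libraries labelled KO and 4 labelled WT. The first are called KO-labelled below because Cul3 itself was not reduced in them. KO mice were Cul3-flox/flox, with loxP sites around part of Cul3, and expressed Cre from the Adipoq promoter (AdipoQ-Cre), whereas WT mice were Cul3-flox/flox without Cre. Both groups thus share the floxed alleles, the diet and the fast. Cul3 encodes cullin 3, a scaffold of ubiquitin ligases, and the Adipoq promoter is active in adipocytes, so other cells of the tissue keep the gene. No group of mice with Cre alone and none on another diet was analysed here. The labels name mice but do not tie a library to an animal, so the p-values measure the spread between these samples.

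In fat cells, noradrenaline acting on β-adrenergic receptors raises cyclic AMP through the stimulatory G protein Gs and adenylyl cyclase. Cyclic AMP frees the catalytic subunits of protein kinase A from its regulatory subunits, and the kinase acts on perilipin and hormone-sensitive lipase to release fatty acids. Receptors coupled to the inhibitory G protein Gi oppose this: α2A-adrenergic, lactate (Hcar1), nicotinic acid and β-hydroxybutyrate (Hcar2) and prostaglandin E2 (Ptger3) receptors lower adenylyl cyclase activity. Insulin acts through phosphodiesterase 3B, which degrades cyclic AMP. In rodents the β3 receptor is the main β-adrenergic receptor of white fat cells.

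Of the 8 members that could be tested, 7 fell in KO-labelled fat and 0 rose. Among all 14400 genes tested, 30.4% were called, 18.6% lower and 11.7% higher in KO-labelled fat (limma, adjusted p under 0.05). Adrb3, the β3-adrenergic receptor gene, had by far the largest change, with a WT mean 11.2 times the KO-labelled mean. Ptger3 (5.61 times), Hcar1 (2.63 times), Gnai1 (2.20 times), Hcar2 (1.99 times), Prkar2b (1.67 times) and Pde3b (1.46 times) followed. The stimulatory receptor and the inhibitory receptors were therefore both among the genes that fell. Adrb1, the β1-adrenergic receptor gene, did not pass the test, and Adra2a lay under the filter on low values. In bulk tissue, fewer cells of a type and less RNA per cell cannot be told apart. The libraries KO4 and WT4 stood apart from their groups, as described below, and without both of them 7 members were still lower. Without WT1 and WT2, which held the most liver marker signal, 4 were lower. That fit kept only WT3 and WT4 as WT libraries and so had less power. Over the whole table it called 1036 genes lower, against 2683 with all libraries. The median log2 fold change was -1.02 over the 8 tested members and -0.02 over all tested genes. In 6 of the 8, every KO-labelled library lay below every WT library, a pattern that 19.1% of all tested genes showed. In none did every KO-labelled library lie above every WT library, against 12.1% of tested genes.

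**Figure D1:**
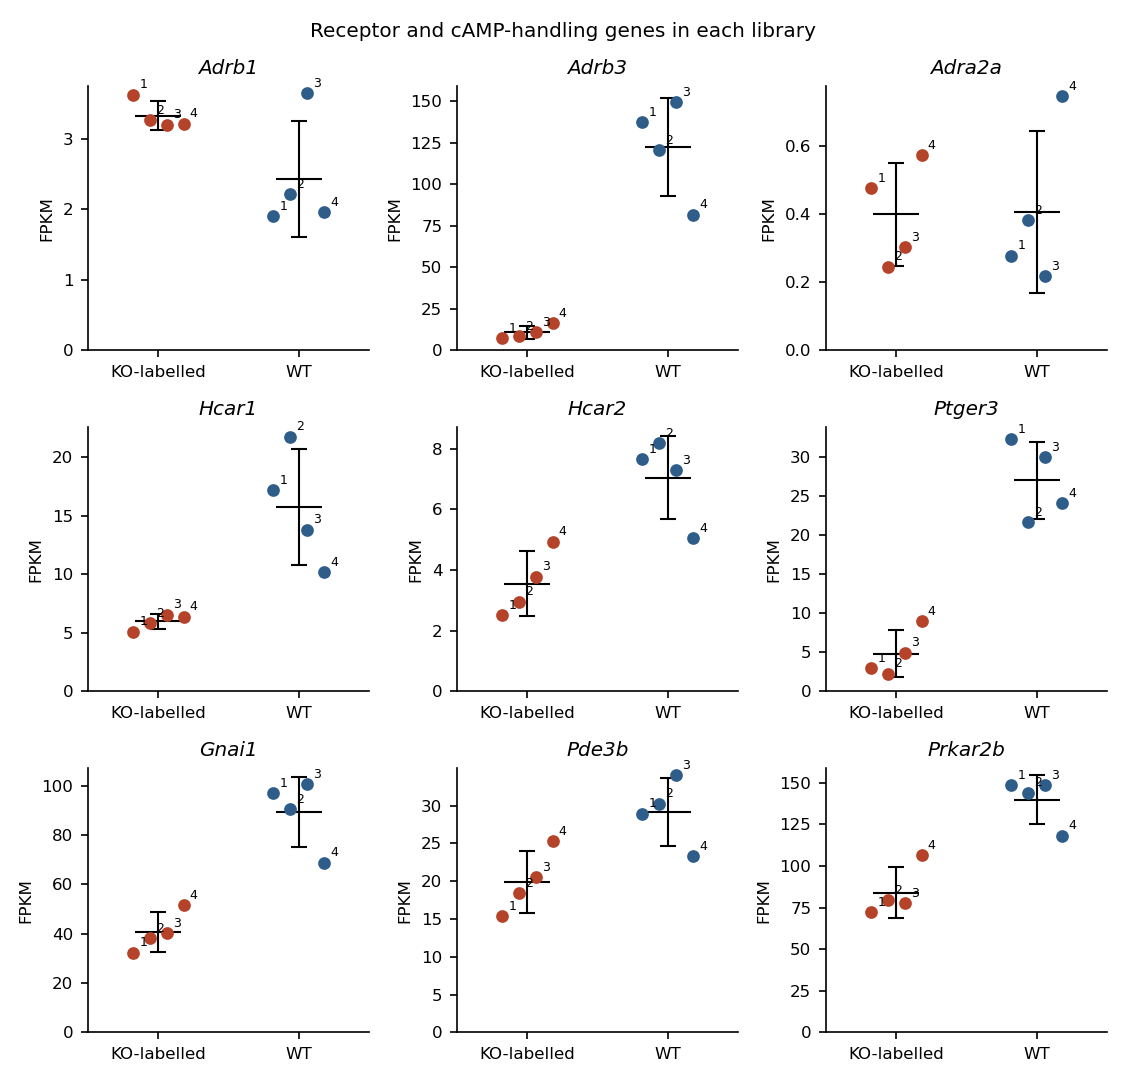
Level of each of the 9 genes in FPKM (vertical axis, linear, from 0) in the 4 KO-labelled libraries and the 4 WT libraries. Points are libraries with their numbers, the horizontal line is the group mean and the bars are 1 SD. Adrb3, Hcar1, Hcar2, Ptger3, Gnai1 and Prkar2b do not overlap between the groups, while Adrb1, Adra2a and Pde3b do.

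Sequences upstream of the start sites were taken for the members that RefSeq's table of build GRCm38.p6 holds, which were 6 of the 9 genes with 7 start sites. The 250 bases before the start are shown for 3 receptor genes: Ptger3 and Hcar1, which both fell, and Adrb1, which did not. Capitals mark the letters TGACG, the core of the cAMP response element, found on either strand; each sequence is written 5′ to 3′ on the gene's own strand.
Ptger3 (chr3:157566626-157566875, plus strand): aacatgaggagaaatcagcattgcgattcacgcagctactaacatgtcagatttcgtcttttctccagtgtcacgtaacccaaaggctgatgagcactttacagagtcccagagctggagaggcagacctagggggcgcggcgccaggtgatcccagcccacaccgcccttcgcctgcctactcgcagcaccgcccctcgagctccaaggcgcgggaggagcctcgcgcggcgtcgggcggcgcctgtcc
Hcar1 (chr5:123880004-123880253, minus strand): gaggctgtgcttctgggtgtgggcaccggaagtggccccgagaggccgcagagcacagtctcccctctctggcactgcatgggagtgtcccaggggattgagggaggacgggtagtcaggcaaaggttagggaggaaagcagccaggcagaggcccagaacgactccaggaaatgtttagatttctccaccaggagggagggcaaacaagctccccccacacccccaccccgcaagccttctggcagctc
Adrb1 (chr19:56721867-56722116, plus strand): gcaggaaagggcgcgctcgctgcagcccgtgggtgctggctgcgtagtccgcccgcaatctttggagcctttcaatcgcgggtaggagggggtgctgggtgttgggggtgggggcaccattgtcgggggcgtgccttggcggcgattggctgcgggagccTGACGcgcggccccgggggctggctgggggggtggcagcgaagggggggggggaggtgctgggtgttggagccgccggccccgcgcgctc
In Adrb1 the match began 90 bases before the start. Adra2a, whose sequence is not shown, also held TGACG, so 2 of the 7 member sequences had it, against 17.8% of 32851 sequences of the same length. The full element TGACGTCA, which contains TGACG, was in none of the 7 and in 1.55% of all. The letters TGACNNNGC of the antioxidant response element were in none of the 7 and 10.2% of all. TTGCNNAA, a CCAAT/enhancer-binding protein motif, was in none of the 7 and 9.56% of all. AGGTCA, a nuclear receptor motif, was in none of the 7 and 14% of all. These letter matches, on both strands, describe sequence and do not show binding. Adrb3, Hcar2 and Pde3b have no sequence printed.

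Levels are in FPKM, the fragments per kilobase of a gene for each 1000000 mapped fragments. Recovered from the FPKM values, reads in listed genes came to 15.2 to 18.7 M in KO-labelled and 17.7 to 19.7 M in WT libraries (M, 1000000 reads). These reads were 62.6% to 66.1% of the FPKM denominator in KO-labelled libraries and 74.1% to 78.7% in WT libraries. Cul3 was not reduced in KO-labelled libraries, at 12 ± 1.28 FPKM against 11.2 ± 1.13 FPKM in WT (SD, n = 4 each; log2 fold change 0.09 ± 0.10, limma adjusted p = 0.520; exact two-sided permutation test, p = 0.486). A value per gene does not separate deleted exons from the rest, and other cells keep Cul3. Every direction given here thus rests on the labels. The fat cell identity of the tissue was clear in all 8 libraries, with Adipoq at 270 to 375 FPKM in KO-labelled and 452 to 745 FPKM in WT libraries.

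The libraries KO4 and WT4 stood apart from the others of their groups. The mean of 10 adipocyte markers was 8.40, 8.36, 8.41 and 8.88 log2 units in KO1 to KO4, against 9.27, 9.51, 9.25 and 8.84 in WT1 to WT4. The mean of 10 macrophage markers was 5.61, 5.70, 5.35 and 4.63 in KO1 to KO4, against 3.94, 3.82, 3.89 and 5.13 in WT1 to WT4. Thus KO4 had the most adipocyte and the least macrophage signal of its group, and WT4 the reverse. Of the adipocyte markers, 8 of 10 fell and none rose, and their summed level was 4695 to 6440 FPKM in KO-labelled and 6408 to 10566 FPKM in WT libraries. Of the macrophage markers, 4 of 10 rose and none fell, with sums of 564 to 1357 FPKM in KO-labelled and 440 to 1262 FPKM in WT libraries. Of 9 endothelial markers, 8 fell, with sums of 145 to 167 FPKM in KO-labelled and 210.0 to 289 FPKM in WT libraries. Liver markers summed to 4.76 to 15.6 FPKM in KO-labelled and 15.5 to 428 FPKM in WT libraries, with the highest values in WT2 (428) and WT1 (112). No marker of these 4 lists was at 0 in any library. Of the other lists, 1 of 7 stromal progenitor markers rose and 1 fell, 1 of 6 mural cell markers rose, 0 of 5 mesothelial markers changed, and 1 of 3 tested nerve markers rose and 1 fell. No T or B cell marker passed the filter, so none was tested. Their sums were low, at 2.04 to 4.27 FPKM in KO-labelled and 0.895 to 2.04 FPKM in WT libraries. Both tested brown adipocyte markers fell, with Ucp1 and Elovl3 at 0 in at least 1 library. Epididymal epithelium markers summed to 0.398 to 214 FPKM in KO-labelled libraries, highest in KO1, and to 0 to 65.9 FPKM in WT libraries, highest in WT2. The part of these other cell types in the changes below was not tested.

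Adrb3 (ENSMUSG00000031489, mm10 chromosome 8, 27225776 to 27250616, minus strand) encodes the β3-adrenergic receptor. It was at 7.34, 8.65, 11.02 and 16.5 FPKM in KO1 to KO4, against 137, 120.3, 149 and 81.6 FPKM in WT1 to WT4. The highest KO-labelled library, KO4, was well below the lowest WT library, WT4, so the groups did not overlap. Means were 10.9 ± 4.06 FPKM in KO-labelled and 122 ± 29.6 FPKM in WT fat (SD, n = 4 each), from 716 to 1382 recovered reads in KO-labelled and 6777 to 11825 in WT libraries. On the log2 scale Adrb3 changed by -3.46 ± 0.27 (95% interval -4.06 to -2.85; limma adjusted p = 9.15e-05), and it passed in all 21 alternative analyses. Of its 3376 exonic bases, 839 are shared with the antisense gene Gm45470, and no strand step is named in the protocol, so reads of the 2 genes cannot be told apart there. Gm45470 moved with it, at 0.785 ± 0.307 FPKM in KO-labelled and 5.98 ± 1.38 FPKM in WT fat (log2 fold change -2.34 ± 0.21, limma adjusted p = 0.000146).

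Adrb1 (ENSMUSG00000035283, chromosome 19, 56722199 to 56733113, plus strand) encodes the β1-adrenergic receptor. It was at 3.62, 3.26, 3.20 and 3.21 FPKM in KO1 to KO4, against 1.91, 2.21, 3.64 and 1.96 FPKM in WT1 to WT4. WT3 exceeded every KO-labelled library, while the other WT libraries lay below all of them. The means of 3.32 ± 0.202 FPKM in KO-labelled and 2.43 ± 0.820 FPKM in WT fat rest on 193 to 263 recovered reads in KO-labelled and 120 to 208 in WT libraries. The log2 fold change of 0.42 ± 0.17 (95% interval 0.04 to 0.80) did not pass after adjustment (limma adjusted p = 0.0884). Without WT3 it was 0.60 and passed (limma adjusted p = 0.00346). The direction was up under every alternative, with adjusted p from 0.00218 to 0.441 and a call in 3 of 21.

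The ratio of Adrb3 to Adrb1 was 2.03, 2.65, 3.44 and 5.15 in KO1 to KO4, against 72.1, 54.4, 41.0 and 41.7 in WT1 to WT4. On the log2(FPKM + 0.5) scale the ratio averaged 1.51 ± 0.54 in KO-labelled and 5.39 ± 0.35 in WT fat, a difference of -3.88. By exact permutation (two-sided) p was 0.0286, the smallest possible with 4 against 4, and 0.0429 after adjustment over 6 ratios and shares. The ratios and shares were chosen with earlier results of these data known. These p-values thus describe the separation of the groups and are not independent tests. This difference does not change with the scaling of a library, apart from the pseudocount. The ratio of Adrb3 to Adra2a was 15.3 to 36.2 in KO-labelled and 109 to 685 in WT libraries, a log2 difference of -3.47 (exact permutation test, p = 0.0286, adjusted 0.0429). Adra2a averaged 0.401 FPKM in KO-labelled and 0.408 FPKM in WT fat, under the pseudocount of 0.5 and from 19 to 70 reads. The difference is thus close to that of Adrb3 alone (-3.46) and is not a second result.

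Among the receptors that oppose lipolysis, Ptger3 (ENSMUSG00000040016, chromosome 3, 157566892 to 157645888, plus strand), encoding the prostaglandin E2 receptor EP3, fell most. It was at 2.97, 2.29, 4.96 and 9.0 FPKM in KO1 to KO4, against 32.3, 21.6, 29.9 and 24.1 FPKM in WT1 to WT4. The groups did not overlap, and KO4 was again the highest of the KO-labelled libraries. Means were 4.80 ± 3.02 FPKM in KO-labelled and 27.0 ± 4.96 FPKM in WT fat, from 319 to 1267 recovered reads in KO-labelled and 2945 to 4677 in WT libraries. On the log2 scale Ptger3 changed by -2.52 ± 0.35 (95% interval -3.31 to -1.72; limma adjusted p = 0.00127) and passed in all 21 alternatives.

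Hcar1 and Hcar2 lie side by side on the minus strand of chromosome 5, 11236 bases apart. Hcar1 (ENSMUSG00000049241, 123876736 to 123880020) encodes the lactate receptor, and Hcar2 (ENSMUSG00000045502, 123863570 to 123865499) the receptor for nicotinic acid and β-hydroxybutyrate. Hcar1 was at 5.11, 5.85, 6.55 and 6.37 FPKM in KO1 to KO4, against 17.2, 21.7, 13.8 and 10.2 FPKM in WT1 to WT4, with no overlap. Its means were 5.97 ± 0.646 FPKM in KO-labelled and 15.7 ± 4.92 FPKM in WT fat, and its log2 fold change was -1.28 ± 0.21 (95% interval -1.75 to -0.81; limma adjusted p = 0.00255). It passed in all 21 alternatives. Hcar2 was at 2.51, 2.96, 3.79 and 4.94 FPKM in KO1 to KO4, against 7.64, 8.18, 7.30 and 5.06 FPKM in WT1 to WT4. Its groups were kept apart by the narrow gap between KO4 and WT4. Its means were 3.55 ± 1.07 FPKM in KO-labelled and 7.04 ± 1.37 FPKM in WT fat, and its log2 fold change was -0.91 ± 0.20 (95% interval -1.38 to -0.45; limma adjusted p = 0.0112). Its recovered reads were 140 to 236 in KO-labelled and 240 to 378 in WT libraries. Without WT1 and WT2 it was -0.74 and did not pass (limma adjusted p = 0.116).

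The ratio of Hcar1 to Hcar2 was 1.29 to 2.04 in KO-labelled and 1.89 to 2.66 in WT libraries. The ranges overlapped, and the log2 difference of -0.36 did not pass (exact permutation test, p = 0.0857, also 0.0857 after adjustment over 6). Whether the 2 genes fell by different amounts could therefore not be shown with these libraries.

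Adra2a (ENSMUSG00000033717, chromosome 19, 54044151 to 54048982, plus strand) encodes the α2A-adrenergic receptor, which restrains lipolysis in human fat. It was at 0.479, 0.247, 0.304 and 0.574 FPKM in KO1 to KO4, against 0.279, 0.384, 0.218 and 0.749 FPKM in WT1 to WT4. The groups overlapped almost completely, at means of 0.401 ± 0.152 FPKM in KO-labelled and 0.408 ± 0.238 FPKM in WT fat. Only 23 to 54 recovered reads in KO-labelled and 19 to 70 in WT libraries stood behind these values, and the gene was not tested in the main fit. With no filter the log2 fold change was 0.01 with a 95% interval of -0.46 to 0.47 (limma adjusted p = 0.992). Differences inside that interval are not excluded by these values. With a pseudocount of 0.5 the scale also understates changes of so low a gene, so larger changes in FPKM are not excluded either.

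Gnai1 (ENSMUSG00000057614, chromosome 5, 18265135 to 18360355, minus strand) encodes a Gi α subunit, through which these inhibitory receptors act. It was at 32.4, 38.2, 40.3 and 51.5 FPKM in KO1 to KO4, against 97.1, 90.6, 101 and 68.9 FPKM in WT1 to WT4. The groups did not overlap, with means of 40.6 ± 8.02 FPKM in KO-labelled and 89.4 ± 14.3 FPKM in WT fat. The log2 fold change was -1.13 ± 0.17 (95% interval -1.51 to -0.76; limma adjusted p = 0.00159) and passed in all 21 alternatives. Gnai1 made up 21.7%, 24.4%, 27.0% and 33.2% of Gnai1, Gnai2 and Gnai3 summed in KO1 to KO4, against 45.4%, 44.1%, 45.5% and 35.8% in WT1 to WT4. The means were 26.6% ± 4.92 in KO-labelled and 42.7% ± 4.64 in WT fat, a difference of -16.1 percentage points (exact permutation test, p = 0.0286, adjusted 0.0429). Gnai2, the other abundant Gi subunit gene, was at 86.5 FPKM on average in KO-labelled and 93.5 FPKM in WT fat and did not pass (limma adjusted p = 0.325).

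Pde3b (ENSMUSG00000030671, chromosome 7, 114415281 to 114539251, plus strand) encodes phosphodiesterase 3B. It was at 15.4, 18.4, 20.5 and 25.3 FPKM in KO1 to KO4, against 28.9, 30.3, 34.0 and 23.3 FPKM in WT1 to WT4. The groups overlapped because KO4 lay above WT4. Means were 19.9 ± 4.16 FPKM in KO-labelled and 29.1 ± 4.46 FPKM in WT fat, and the log2 fold change of -0.55 ± 0.16 (95% interval -0.92 to -0.18) passed narrowly (limma adjusted p = 0.0344). The call was the least stable of the 7, passing in 9 of 21 alternatives. It was lost without KO1, KO2, KO3, WT1, WT2 or WT3 (adjusted p 0.0683 to 0.0846) and held without KO4 (0.0142) or WT4 (0.0175). Within the phosphodiesterase 3 pair, Pde3b held 93.5% to 95.1% of the summed level in KO-labelled and 96.2% to 97.9% in WT libraries, a difference of -2.65 percentage points (exact permutation test, p = 0.0286, adjusted 0.0429).

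Prkar2b (ENSMUSG00000002997, chromosome 12, 31958476 to 32061296, minus strand) encodes RIIβ, the main protein kinase A regulatory subunit of mouse fat. It had the highest mean level of the 9 genes in both groups, though its WT range overlapped that of Adrb3. It was at 72.2, 79.5, 77.5 and 106.5 FPKM in KO1 to KO4, against 149, 144, 149 and 118 FPKM in WT1 to WT4. KO4 came closest to WT4, and the groups did not overlap. Means were 83.9 ± 15.4 FPKM in KO-labelled and 139.9 ± 14.6 FPKM in WT fat, with a log2 fold change of -0.74 ± 0.14 (95% interval -1.06 to -0.43; limma adjusted p = 0.00515). Without WT1 and WT2 it was -0.67 and did not pass (limma adjusted p = 0.0666). Prkar2b made up 58.4%, 60.0%, 60.0% and 67.4% of the summed level of the 4 regulatory subunit genes in KO1 to KO4, against 71.0%, 71.3%, 70.4% and 65.8% in WT1 to WT4. KO4 exceeded WT4, and the difference of -8.19 percentage points did not pass (exact permutation test, p = 0.0571, adjusted 0.0686).

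The size of these changes depended on the scale against which they were read. FPKM here are relative to a denominator that was recovered from the values, and listed genes held a smaller part of it in KO-labelled libraries. After scaling every library to a sum of 1000000, the median of all genes moved to 0.24 on the log2 scale and that of the members to -0.79. On this scale 6 members were lower and 1, Adrb1, was higher (log2 fold change 0.75, limma adjusted p = 0.0163), where 8.26% of all genes were called lower and 29.3% higher. Pde3b no longer passed (-0.28, adjusted p = 0.194), while Adrb3 was at -3.24 and Ptger3 at -2.37.

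Each library was also shifted by the mean of its 10 adipocyte markers, so that a member is read against other genes of fat cells. On that scale the median log2 fold change was 0.68 over all genes and -0.32 over the 8 members. Of the members, 4 were lower: Adrb3 (-2.76, limma adjusted p = 8.75e-08), Ptger3 (-1.82, adjusted p = 0.000347), Hcar1 (-0.58, adjusted p = 0.0198) and Gnai1 (-0.43, adjusted p = 0.0476). Only 1.44% of all genes were called lower on this scale and 59.9% higher. Hcar2 (-0.21, adjusted p = 0.328) and Prkar2b (-0.04, adjusted p = 0.8291) no longer passed, Pde3b changed sign (0.15, adjusted p = 0.460) and Adrb1 was higher (1.12, adjusted p = 0.00218). Adrb3 and Ptger3 thus fell by much more than the mean of the adipocyte markers, while Prkar2b, Hcar2 and Pde3b were not shown to differ from that mean. Single markers ranged from -1.82 (Cidec) to 0.45 (Cfd) in log2 fold change as deposited. Hcar1 (-1.28) and Gnai1 (-1.13) lay within that range, so their calls on this scale are against the mean and not against every marker.

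**Figure D2:**
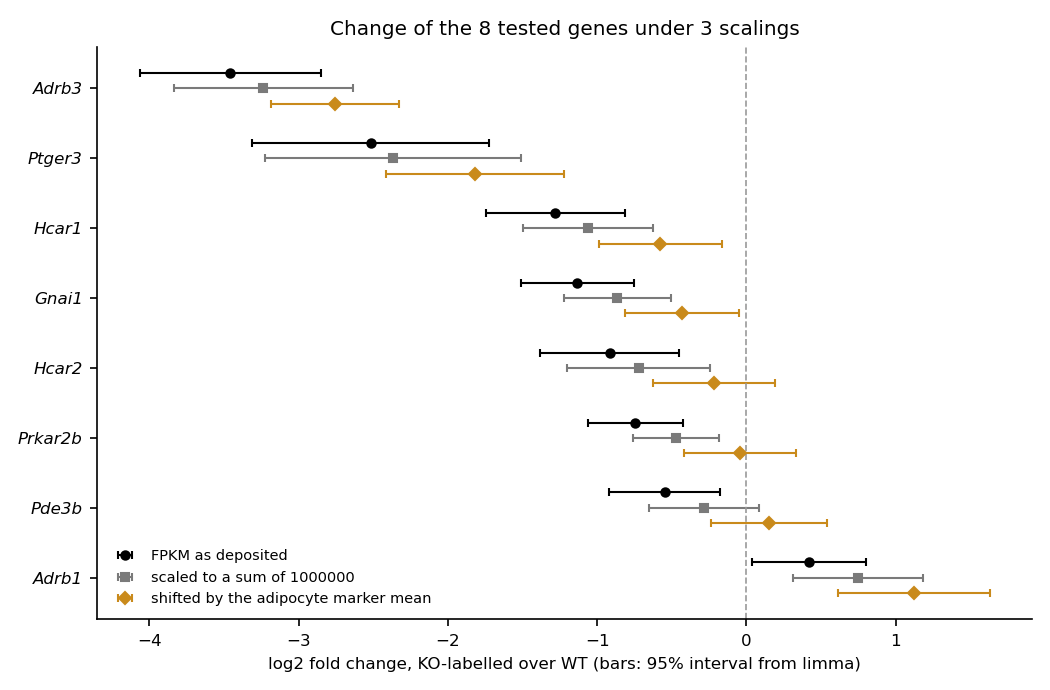
Log2 fold change of KO-labelled over WT (horizontal axis) for the 8 tested genes, with 95% intervals from limma, on FPKM as deposited, scaled to a sum of 1000000 and shifted by the adipocyte marker mean. Adrb3 and Ptger3 lie left of 0 on all 3 scales, the intervals of Hcar2, Prkar2b and Pde3b meet 0 once shifted, that of Pde3b also on the sum scale, and Adrb1 lies right of 0.

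The libraries that stood apart in the adipocyte markers also stood apart in most members. KO4 was the highest KO-labelled library and WT4 the lowest WT library for 5 of the 8 tested members: Adrb3, Hcar2, Gnai1, Pde3b and Prkar2b. The same held for 13.4% of all tested genes and 27.2% of those called lower. The members still lower without WT1 and WT2 were Adrb3, Ptger3, Hcar1 and Gnai1. Hcar1, highest in KO3 among the KO-labelled libraries, Ptger3, lowest in WT2 among the WT libraries, Adrb1 and the untested Adra2a did not follow this order.

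**Figure D3:**
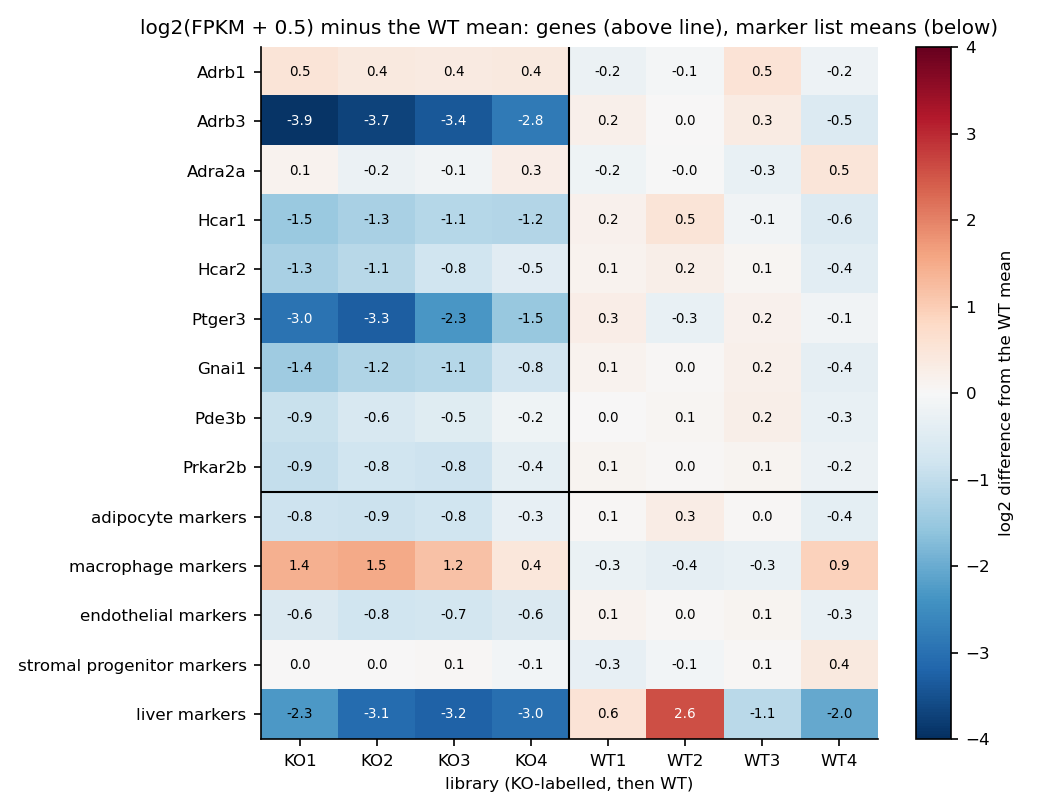
Difference of each library from the WT mean in log2(FPKM + 0.5), by colour and number, for the 9 genes (above the line) and for the means of 5 marker lists (below). Libraries run from KO1 to KO4 and then WT1 to WT4; KO4 and WT4 have the smallest differences between groups for Adrb3 (-2.8 and -0.5), the adipocyte markers (-0.3 and -0.4) and Prkar2b (-0.4 and -0.2).

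Ranked by FPKM, which is per length, the order of the 9 genes also differed. In KO-labelled fat it was Prkar2b, Gnai1, Pde3b, Adrb3, Hcar1, Ptger3, Hcar2, Adrb1 and Adra2a. The ranges of Pde3b and Adrb3 overlapped, as did those of neighbours from Hcar1 to Adrb1. In WT fat it was Prkar2b, Adrb3, Gnai1, Pde3b, Ptger3, Hcar1, Hcar2, Adrb1 and Adra2a, with overlap between neighbours from Prkar2b to Gnai1 and from Pde3b to Hcar1. Adrb3 was thus the fourth in KO-labelled and the second in WT fat.

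The genes whose pattern over the 8 libraries was most like that of Adrb3 were found by the root mean square difference in log2 units, each gene centred on its WT mean, over 11139 genes. They were Tmem45b (0.30), a transmembrane protein gene, Pnpla3 (0.31), a lipid droplet acyltransferase and lipase gene, Paqr9 (0.37), Fasn (0.43), fatty acid synthase, and Lep (0.45), leptin. Tmem45b averaged 4.85 ± 2.05 FPKM in KO-labelled and 62.1 ± 14.8 FPKM in WT fat. Pnpla3 averaged 13.2 ± 6.48 FPKM in KO-labelled and 137 ± 19.6 FPKM in WT fat. Of the other members, Ptger3 was nearest at rank 12 (0.73), Hcar1 was at rank 158 (1.58), and Adrb1 was at rank 9716 (2.77). The measure takes in the size of the group difference as well as the order of the libraries.

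Beyond the 9 genes, 13 lists of pathway genes held 143 genes, of which 113 passed the filter on low values. Of these, 25 fell, 18 rose and 70 did not pass, with a median log2 fold change of -0.05. Over all tested genes 18.6% were lower and 11.7% higher, and nothing particular to these lists is read from their counts. Without KO4 and WT4, 28 fell and 21 rose, and without WT1 and WT2, 11 fell and 8 rose. Of the 43 calls, 18 held in all 10 analyses with 1 or 2 libraries left out, and 24 did not hold without WT1 and WT2. In that last fit fewer genes were called over the whole table too, 1036 lower and 722 higher. On the sum scale 17 of the 113 genes were lower and 37 higher (8.26% and 29.3% of all genes). Shifted by the adipocyte markers, 6 were lower and 72 higher (1.44% and 59.9% of all genes). The sign of 1 called gene, Prkar1a, changed on the sum scale. On the adipocyte scale 10 changed sign, all of them called lower as deposited: Cnr1, Gng11, Pde7b, Prkaca, Prkar1a, Rgs4, Pnpla2, Lipe, Abhd5 and Plin1.

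Of 11 other Gs-coupled lipolytic receptor genes tested, 3 fell and 1 rose as deposited, while 2 were lower and 5 higher after the adipocyte shift. Tshr, the thyrotropin receptor, was at 8.90 ± 2.28 FPKM in KO-labelled and 23.4 ± 1.53 FPKM in WT fat (log2 fold change -1.37 ± 0.15, limma adjusted p = 0.000430). Gipr, the receptor of the incretin GIP, was at 1.19 ± 0.233 FPKM in KO-labelled and 4.08 ± 0.850 FPKM in WT fat (-1.43 ± 0.16, adjusted p = 0.000506). Vipr2, a receptor of vasoactive intestinal peptide, rose, at 0.998 ± 0.221 FPKM in KO-labelled and 0.352 ± 0.115 FPKM in WT fat (0.81 ± 0.16, adjusted p = 0.00694). Its WT mean lay under the filter of 0.5, so Vipr2 was tested only through its KO-labelled values. The most abundant of the list, the corticotropin receptor gene Mc2r, was at 19.98 ± 4.15 FPKM in KO-labelled and 16.8 ± 2.65 FPKM in WT fat and did not pass (adjusted p = 0.303). Of 5 other Gi-coupled receptor genes, 3 fell and 1 rose as deposited, while 1 was lower and 2 higher after the adipocyte shift. Ffar2, a short-chain fatty acid receptor, was at 8.69 ± 1.22 FPKM in KO-labelled and 23.1 ± 2.87 FPKM in WT fat (-1.36 ± 0.12, adjusted p = 0.000145). Adora1, the adenosine A1 receptor gene, also fell (-0.70, adjusted p = 0.0155), though not without WT1 and WT2 (adjusted p = 0.138). After the adipocyte shift Adora1 was at -0.003 (limma adjusted p = 0.989), and 20.1% of its exonic bases are shared with Mybph. The cannabinoid receptor gene Cnr1 fell (-0.65, adjusted p = 0.00653), and the succinate receptor gene Sucnr1 did not pass (0.23, adjusted p = 0.226). Of 3 α1-adrenergic receptor genes, Adra1d fell (-0.73, adjusted p = 0.00650), but was at -0.03 after the adipocyte shift (limma adjusted p = 0.905).

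Of 14 further G protein subunit genes, 3 fell and 1 rose as deposited, while 2 were lower and 2 higher on the sum scale and 0 lower and 9 higher after the adipocyte shift. Gnb5 (-0.91, limma adjusted p = 0.00793) and Gng11 (-0.62, adjusted p = 0.009235) fell, and both calls were lost without WT1 and WT2. Gnao1 rose (0.76, adjusted p = 0.0194), but not without WT1 or without KO4 and WT4. Of 6 adenylyl cyclase genes, 2 fell and 1 rose as deposited, while 1 was lower and 3 higher after the adipocyte shift. Adcy5 was at 10.7 ± 1.34 FPKM in KO-labelled and 32.2 ± 7.71 FPKM in WT fat (-1.52 ± 0.16, adjusted p = 0.000348). Adcy4 fell as well (-0.77, adjusted p = 0.00172), but was at -0.07 after the adipocyte shift (limma adjusted p = 0.760). Adcy3 moved the other way, at 7.10 ± 0.417 FPKM in KO-labelled and 3.73 ± 0.925 FPKM in WT fat (0.87 ± 0.15, adjusted p = 0.00296), and 22.1% of its exonic bases are shared with Cenpo. The cyclases therefore changed in both directions.

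Of 11 other phosphodiesterase genes, 2 fell and 1 rose as deposited. On the sum scale 0 were lower and 3 higher, after the adipocyte shift 0 and 7, and without WT1 and WT2 none was called. Pde4b fell (-0.74, limma adjusted p = 0.0174) and Pde1b rose (0.57, adjusted p = 0.0106), neither without WT1 and WT2. Pde7b fell (-0.47, adjusted p = 0.0194), but not without WT1, without WT1 and WT2, or without KO4 and WT4. The most abundant, Pde7a, did not pass (0.06, adjusted p = 0.731). Of 12 genes for protein kinase A subunits, inhibitors and anchors, 2 fell and 2 rose as deposited. On the sum scale 0 were lower and 4 higher, after the adipocyte shift 0 and 7, and without WT1 and WT2 none was called. Prkaca, the main catalytic subunit gene, fell by 0.45 on the log2 scale (adjusted p = 0.0226), lost without KO2, KO3, WT1 or WT2. Prkar1a fell by 0.23 (adjusted p = 0.0314), which held in only 2 of 10 analyses with libraries left out, and the anchor gene Akap13 rose (0.43, adjusted p = 0.0107), though not without WT1 and WT2.

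Of 13 genes for receptor kinases, arrestins and RGS proteins, 3 rose and 2 fell as deposited, while 8 were higher and 1 lower on the sum scale and 9 higher and 0 lower after the adipocyte shift. Arrdc3, an α-arrestin gene whose product promotes loss of β-adrenergic receptors, was at 24.5 ± 4.22 FPKM in KO-labelled and 6.41 ± 1.24 FPKM in WT fat (1.85 ± 0.16, limma adjusted p = 0.000130). The receptor kinase gene Grk5 fell (-0.72, adjusted p = 0.00131). Arrb2, encoding β-arrestin 2, rose (0.77, adjusted p = 0.0174), but not without WT1 and WT2. Rgs5, the most abundant of the list, did not pass (-0.27, adjusted p = 0.235). Of 10 genes for EPAC, CREB and their coactivators, 1 rose, Crtc3 (0.27, adjusted p = 0.0487), which held in 3 of 10 analyses with libraries left out. Of 9 cAMP-induced transcripts, 2 rose and none fell as deposited, while 4 were higher on the sum scale and 7 after the adipocyte shift. The 2 called as deposited were Nr4a3 (0.81, adjusted p = 0.0364) and Ppargc1a (0.54, adjusted p = 0.0306), which held in 4 and 2 of those 10 analyses. Nr4a3 averaged 0.991 FPKM in KO-labelled and 0.344 FPKM in WT fat, and Ppargc1a 0.841 FPKM and 0.422 FPKM. Both WT means lay under the filter of 0.5, so these 2 genes were tested only through their KO-labelled values. Pck1, the most abundant, was at 198 FPKM on average in KO-labelled and 207 FPKM in WT fat and did not pass (adjusted p = 0.848). It was at 291 FPKM in KO4 against 156 to 187 FPKM in KO1 to KO3. In WT4 it was at 138 FPKM, against 198 to 252 FPKM in WT1 to WT3. Without KO4 and WT4, Pck1 was called lower (-0.46, limma adjusted p = 0.0324).

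Of 3 tested genes of noradrenaline supply and clearance, 1 rose and none fell. Maoa, encoding monoamine oxidase A, was at 48.1 ± 8.74 FPKM in KO-labelled and 13.4 ± 1.36 FPKM in WT fat (1.79 ± 0.14, limma adjusted p = 8.47e-05). Of 8 genes of prostaglandin E2 supply and clearance, 4 rose and none fell. They included the prostaglandin dehydrogenase gene Hpgd (0.50, adjusted p = 0.00727), the prostaglandin transporter gene Slco2a1 (0.74, adjusted p = 0.00682) and the exporter gene Abcc4 (0.75, adjusted p = 0.000942). All 3 held in every analysis with libraries left out.

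Of 8 lipolytic effector genes, 7 fell and none rose. G0s2, an inhibitor of adipose triglyceride lipase, was at 51.8 ± 13.2 FPKM in KO-labelled and 191 ± 48.8 FPKM in WT fat (-1.87, limma adjusted p = 0.000602). Mgll, monoglyceride lipase, was at 75.7 ± 9.91 FPKM in KO-labelled and 204 ± 33.2 FPKM in WT fat (-1.42, adjusted p = 0.000300). Abhd5, the activator of adipose triglyceride lipase, fell by 0.61 on the log2 scale (adjusted p = 0.002575). Fabp4, a fatty acid binding protein gene, fell by 0.86 (adjusted p = 0.00839), and it and Plin1 are also among the adipocyte markers. Without WT1 and WT2, 3 of the 8 were lower. Shifted by the adipocyte markers, 2 were lower (G0s2 and Mgll) and 1, the glycerol channel gene Aqp7, was higher.

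**Figure D4:**
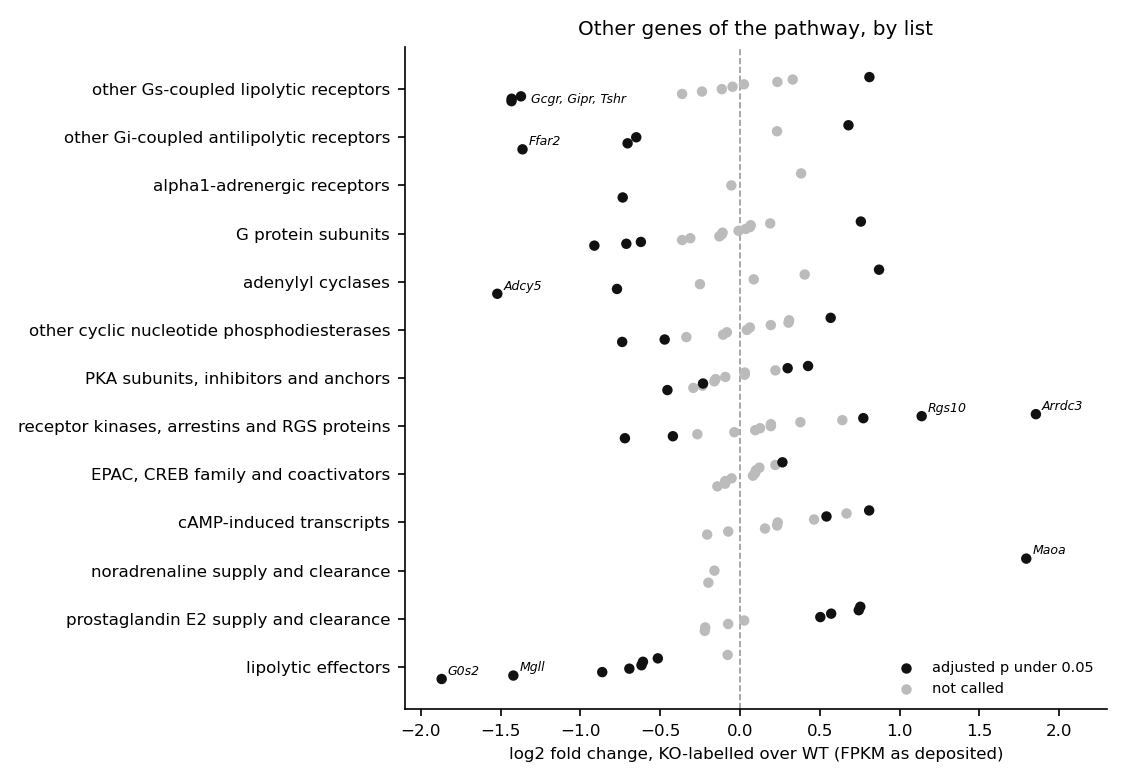
Log2 fold change of KO-labelled over WT on FPKM as deposited (horizontal axis) for the 113 tested genes of the 13 pathway lists, 1 row per list and 1 point per gene. Black points passed at an adjusted p under 0.05 (25 lower, 18 higher) and grey points did not; the largest changes carry their gene names.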

How the data were processed

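Poly(A) RNA of epididymal fat was sequenced in 8 libraries. Per the labels' protocols, RNA was extracted with TRIzol and cDNA was primed with random hexamers, and no step that marks the strand is named. Per the submitters' processing notes, HISAT2 2.0.5, featureCounts and build mm10 were used, and no release of the annotation is stated in the sources used here. The deposited table holds FPKM values for 28295 genes, of which 28255 matched a GENCODE M21 gene of mm10, whose coordinates are given, 1-based.

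FPKM are not counts. The log2 of FPKM plus a pseudocount of 0.5 was tested in limma 3.58.1 under R 4.3.3 (trend and robust moderation, all 8 libraries, no covariate, two-sided). The 14400 genes whose FPKM averaged 0.5 or more were tested, and a call needed a Benjamini-Hochberg adjusted p under 0.05. Fold changes on this scale understate those of low genes. Errors are SDs over libraries, or limma's standard errors beside log2 fold changes. Whole reads were recovered from the steps of low values: 97.9% of values between 0.5 and 200 reads lay within 0.02 of a whole read, and all libraries gave reads for 98.3% of genes. The recovered reads were tested with voom as an alternative, which called 7 members lower. The lengths behind Adrb1 and Adra2a were inferred from these steps. Ratios and shares were tested with exact two-sided permutation tests.

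The 9 members, the 13 pathway lists, the 11 marker lists and the ratios were chosen with earlier results of these data known, so counts over them are descriptions. The p-values of ratios and shares likewise describe how far the groups were apart. Named genes were the members, up to 3 called genes with the smallest adjusted p and the most abundant gene of each pathway list, and the 5 genes most like Adrb3. The genes given for a change of sign, Gnas, Aqp7, Gcgr, Th and Dbh were named outside this rule, after their values were seen. Plaat3 and Zic1 were not analysed here, and results of 2 listed genes are not reported here. Alternatives were other pseudocounts, filters, scalings, moderation, a replicate block and libraries left out. Figures used matplotlib 3.10.9.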

Additional observations from a re-analysis of the deposited data

Results flagged for a closer look

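In 32 groups of 4 libraries, the highest or lowest library was set against the rest, and 3 stood apart by a gap above Dixon's 95% critical value. Chance alone marks about 1 in 20 groups. Adrb1 was at 3.62 FPKM in KO1, next to 3.26 FPKM in the nearest other KO-labelled library. Prkar2b was at 118 FPKM in WT4, next to 144 FPKM in the nearest other WT library. The share of Gnai1 in Gnai1 to Gnai3 was 35.8% in WT4, next to 44.1% in the nearest other WT library. WT4 was also the WT library with the lowest adipocyte marker mean (8.84 log2 units, against 9.25 to 9.51 in the other WT libraries), and the part of this in either value was not tested.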

How the results depend on the processing

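Adrb3, Ptger3, Hcar1 and Gnai1 kept their direction and call in all 21 alternatives. Fits without KO4 and WT4 and without WT1 and WT2 were chosen after seeing the data. The second kept only WT3 and WT4 as WT libraries and so had less power. Over the whole table, 1689 genes were higher and 2683 lower. Scaled to a sum of 1000000 these were 4226 and 1190, shifted by the adipocyte markers 8629 and 207, and without WT1 and WT2 722 and 1036. With 1 library left out, 1089 to 1937 were higher and 1858 to 2803 lower, and 6 to 7 members lower and 0 to 1 higher. Members lower were 4 after the adipocyte shift and 4 without WT1 and WT2, and members higher were 1 on the sum scale and 1 after the shift. Pde3b reversed after the shift (0.15). Cul3 was 0.37 on the sum scale and 0.79 after the shift (adjusted p = 0.0477 and 0.00697), and 0.03 to 0.15 with 1 library left out. With 3 against 4 libraries no ratio could pass (smallest exact permutation p 0.0571). The differences then ran from -4.11 to -3.68 for Adrb3 over Adrb1, -3.81 to -3.26 for Adrb3 over Adra2a, -18.4 to -14.5 points for the Gnai1 share and -2.97 to -2.29 points for the Pde3b share. Without KO4 and WT4 (smallest p 0.1) they were -4.22, -3.94, -20.6 and -3.11. The cause of these changes was not tested, except that fewer libraries raise the smallest p. No pairing by replicate number was seen (correlations of same-numbered libraries -0.32 to 0.17, of other KO-labelled and WT pairs -0.23 to 0.21). With so few libraries, these correlations cannot exclude a pairing. With a replicate block 1113 genes were higher and 1995 lower, and 5 members were lower, with Hcar2 (adjusted p = 0.0537) and Pde3b (0.0869) lost, and the 4 ratios were unchanged at -3.88, -3.47, -16.1 and -2.65 with the smallest p of 4 pairs, 0.125. At 19 to 70 reads, Adra2a sets the limit of depth.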

Other observations

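Gcgr, the glucagon receptor gene, lay outside the naming rule and was looked at after its values were seen. It was at 0.314, 0.265, 0.158 and 0.154 FPKM in KO1 to KO4, against 1.29, 4.38, 1.30 and 0.403 FPKM in WT1 to WT4. Its highest value was in WT2, the library with the most liver marker signal, and its call (log2 fold change -1.43 ± 0.44, limma adjusted p = 0.0377) was lost without WT1 and WT2 (adjusted p = 0.128). Gnas, which encodes the Gs α subunit, was at 3.498 FPKM on average in KO-labelled and 5.90 FPKM in WT fat (-0.71, adjusted p = 0.0216). The call was lost without KO3, WT1 or WT2, and 21.97% of its exonic bases are shared with neighbouring transcripts. The noradrenaline synthesis genes Th and Dbh were listed at 0 in all WT libraries and at 0.0307 FPKM or less in KO-labelled libraries.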
